A study of Mus musculus with 8 samples.

Results

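The genes described here are 42 targets of NRF2 and antioxidant enzymes, a set given by name and sorted by role into regulators, glutathione, thioredoxin and peroxiredoxin, superoxide and peroxide, pentose phosphate, other NRF2 targets and metallothioneins. Of these, 39 had a probe set that named the gene alone, out of 19938 genes measured in this way. Prdx5, Prdx6 and G6pdx are not analysed here. The hydrogen water group held 4 livers from C57BL6 mice that had drunk hydrogen water for 4 weeks from 7 weeks of age, and the control group held 4 livers from C57BL6 mice whose sample descriptions name no hydrogen water. Every animal in both groups was fasted for 17 h before it was killed and was kept at 24 degrees C with 12 h of light. The treatment field of the labels is the same for all 8 samples, so groups were taken from sample titles. The sources used here state neither the sex of the mice nor what controls drank. Each liver gave RNA for an array (Affymetrix Mouse Gene 1.0 ST), which reads a transcript through several probes along its length, and values are log2 signals.

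NRF2, encoded by Nfe2l2, is a transcription factor that KEAP1 holds in the cytoplasm and marks for breakdown. Oxidants and electrophiles modify cysteines of KEAP1, and NRF2 then accumulates, pairs with small MAF proteins and binds antioxidant response elements near genes for glutathione synthesis, thioredoxin reduction, NADPH supply and quinone detoxification. In liver these genes form much of the defence against reactive metabolites, and peroxiredoxins, catalase and superoxide dismutases act beside them with partly separate control.

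Antioxidant response elements are the sequences through which NRF2 acts on its targets, so the windows of the genes were searched for the core TGACNNNGC on both strands. RefSeq windows of the build GRCm38.p6, from 250 bases before to 50 bases after a start site, were at hand for 34 of the 39 genes, and 9 of the 34 (26.5%) held the core, against 14.0% of all 27025 genes with a window. Stretches from 6 of the 9 are shown, all from the fixed set of genes whose values on each array are given below. At most 6 were to be shown, and Nfe2l2, also in that set, is left out. The core is in capitals and each stretch is read in the direction of the gene. Where the core lies on the opposite strand its complement is read.
Mt2: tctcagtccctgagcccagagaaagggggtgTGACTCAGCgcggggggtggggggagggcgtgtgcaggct
Srxn1: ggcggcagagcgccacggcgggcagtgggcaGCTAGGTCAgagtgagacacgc
Gclm: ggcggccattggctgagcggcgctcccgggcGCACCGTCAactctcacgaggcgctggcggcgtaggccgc
Sod1: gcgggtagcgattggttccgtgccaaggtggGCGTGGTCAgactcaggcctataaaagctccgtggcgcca
Prdx1: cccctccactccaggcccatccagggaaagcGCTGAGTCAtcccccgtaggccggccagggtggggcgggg
Txnrd1: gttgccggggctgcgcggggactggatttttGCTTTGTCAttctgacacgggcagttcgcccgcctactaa
The Mt2 stretch lies at chr8:94172508-94172578, that of Srxn1 at chr2:152105521-152105573, that of Gclm at chr3:122245392-122245462, that of Sod1 at chr16:90220675-90220745, that of Prdx1 at chr4:116685435-116685505 and that of Txnrd1 at chr10:82859083-82859153, all on the plus strand. The match begins 79 bases before the start site in Mt2, 134 before in Gclm, 133 before in Prdx1, 92 before in Txnrd1 and 56 before in Sod1, whereas in Srxn1 it begins at base 29 of the transcript. In Mt2 and Prdx1 the core also contains the AP-1 site TGACTCA or its complement. Txnrd1 has 3 windows, of which only the one shown held the core. Nfe2l2, Pgd and Ugdh held it as well, while the windows of Nqo1, Osgin1, Cbr3 and Mt1, among others, did not. A match is a string of letters in a window and not a measured binding site. Elements outside the window were not searched, so a window without the core does not show that the gene lacks one.

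The 8 arrays were alike in overall signal, with medians over all probe sets between 5.27 and 5.37 and correlations between arrays over the genes tested between 0.988 and 0.995. Control 1 had the lowest median (5.27), and control 3 correlated least with its own group (mean 0.989). Albumin, a hepatocyte product, lay between 14.29 and 14.41 with hydrogen water and between 14.33 and 14.47 in controls. In whole liver, fewer cells of a type and less RNA per cell cannot be told apart. The labels do not state that the 4 arrays of a group come from separate animals; where they do not, the p-values reflect sample-to-sample spread alone, which may be technical.

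The question was whether transcripts of oxidant defence differed between livers of mice given hydrogen water and control livers. None of the 39 genes passed the test. With limma and Benjamini-Hochberg adjustment over 19938 genes, 0 of 39 had an adjusted p under 0.05 (0.0% of all genes passed), and their adjusted p-values lay between 0.687 and 0.987. At an unadjusted p under 0.05 there were 3 of 39 genes (7.69%), against 7.17% of all genes. Those were Nqo1 and Osgin1 on the lower side and Mt1 on the higher side. The hydrogen water and control values overlapped in all 39 genes, whereas they did not overlap in 3.76% of all genes.

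More of the 39 genes stood below than above control. With hydrogen water 27 of 39 (69.2%) had a lower mean, against 51.3% of all genes and 48.5% of genes above the median level. The median difference was −0.04 on the log2 scale, against −0.00 over all genes, with single differences between −0.58 and 0.63 and a median SE of 0.13. Scaling moved the share over all genes more than the share over the 39: with each array centred on its median, 76.9% of the 39 and 62.1% of all genes were lower, and with quantile normalization 66.7% and 60.6%. In 3 of the 39 genes (Osgin1, Mt1 and Mt2) the difference was at least 0.5 in either direction, against 240 of all 19938 genes. The 95% interval lay wholly within 0.5 of zero in 26 of the 39, against 15684 of all 19938 genes.

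Over the 39 genes together, that excess of lower values was not seen without control 1, but the role groups differed in this. This array was the highest of the 8 arrays in 20 of 39 genes (51.3%), whereas it was the highest in 11.1% of all genes. Without control 1, 20 of 39 genes (51.3%) were lower with hydrogen water, against 51.9% of all genes, and the median difference of the 39 was −0.00. By role group, the lower genes were then 7 of 10 for glutathione (median −0.11) and 5 of 8 for other NRF2 targets (median −0.10). They were 3 of 3 for pentose phosphate (median −0.11), against 3 of 10 for thioredoxin and peroxiredoxin (median 0.06). For superoxide and peroxide they were 2 of 4, and the 2 regulators and the 2 metallothioneins were higher. The difference turned sign in 11 of 39 genes, 9 of them going from below to above control, and shrank towards zero in size in 27. Over all 19938 genes it turned sign in 2094, 982 of them going from below to above control, and shrank in size in 8255. At an unadjusted p under 0.05 there were then 0 of 39 genes, against 6.13% of all genes, and the lowest adjusted p was 0.79 (limma). Control 3 was the lowest of the 8 arrays in 11 of 39 genes (28.2%), against 18.4% of all genes. Without control 3, 29 of 39 genes (74.4%) were lower, against 50.3% of all genes. At an unadjusted p under 0.05 there were then 12 of 39 genes (30.8%), against 8.57% of all genes. Of these, 9 were lower and 3 higher, where 4.59% of all genes were lower and 3.98% higher at that p. After adjustment 0 of 39 passed, against 0.00502% of all genes (lowest adjusted p = 0.488, limma). The mean of the 39 genes, each centred on its own average, was −0.00, −0.03, −0.09 and 0.01 on hydrogen water 1 to 4, against 0.16, 0.08, −0.14 and 0.02 on controls 1 to 4. The SD of that mean was 0.04 over hydrogen water livers and 0.13 over control livers.

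**Figure D1:**
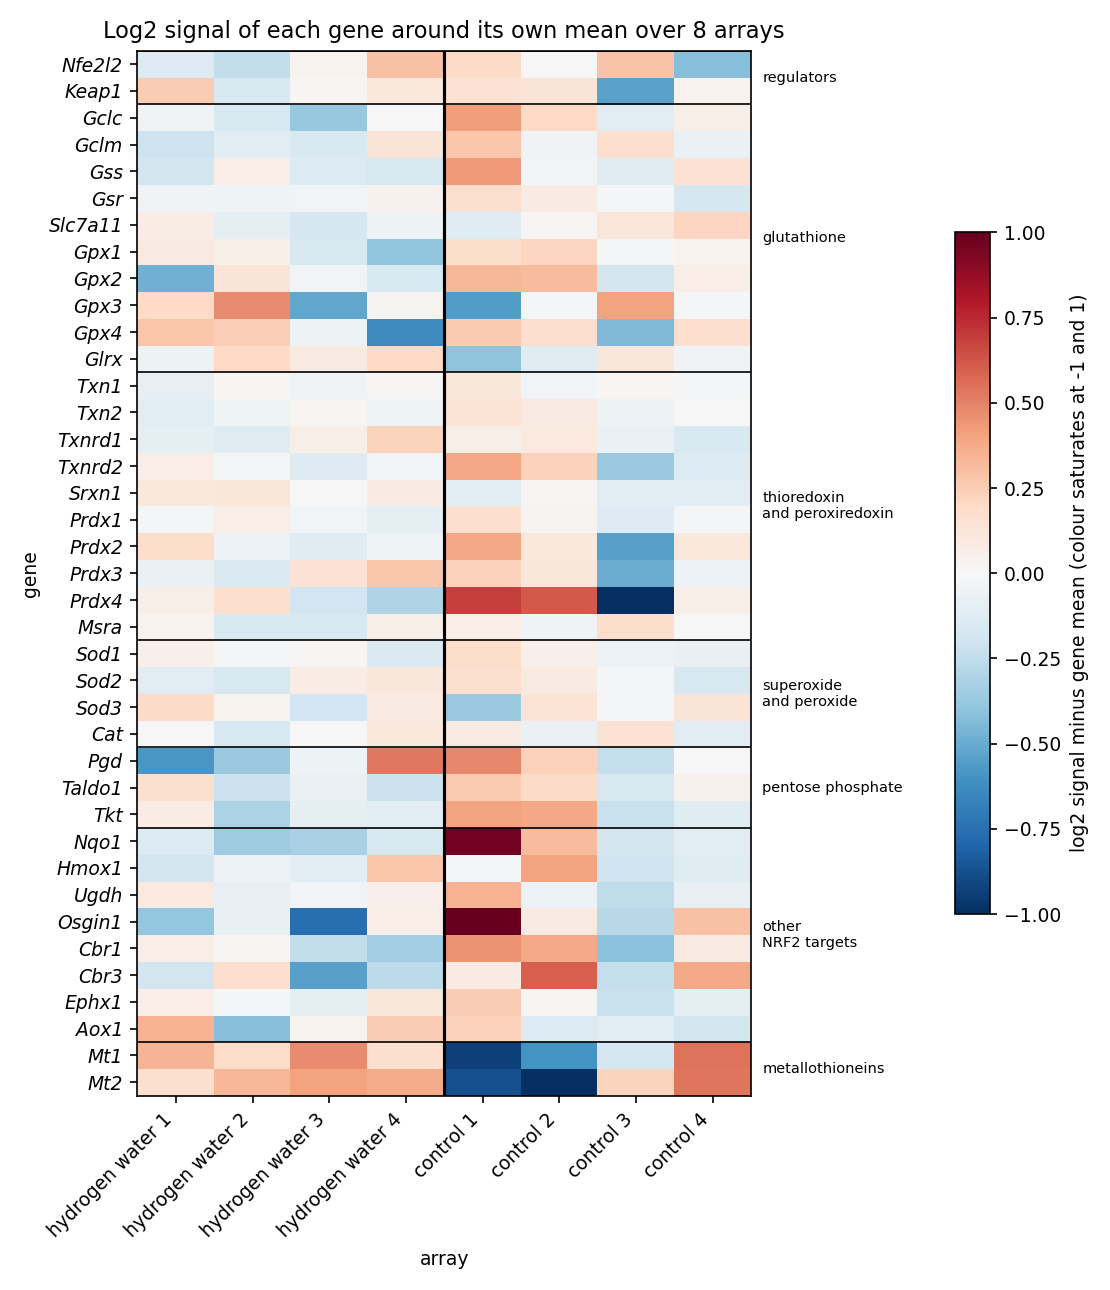
Colour gives the log2 signal of each of the 39 genes (rows, by role group) minus its own mean over the 8 arrays (columns, hydrogen water left of the line and control right of it). Control 1 is the reddest column in most rows above the metallothioneins and was the highest array in 20 of 39 genes, while the metallothioneins run the other way on controls 1 and 2.

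NRF2 is controlled mainly through the stability of its protein, which arrays do not measure. Of the transcripts of the regulator pair, neither differed beyond its spread. Nfe2l2 had log2 signals of 9.93, 9.81, 10.09 and 10.35 on hydrogen water 1 to 4, against 10.25, 10.06, 10.34 and 9.63 on controls 1 to 4. These ranges covered each other, with the highest value on hydrogen water 4 and the lowest on control 4. The difference was −0.03 (SE 0.16, 95% interval −0.39 to 0.33), and it was 0.03 without control 1. Keap1, which encodes the adaptor that delivers NRF2 to a ubiquitin ligase, had 8.61, 8.20, 8.37 and 8.46 with hydrogen water, against 8.51, 8.48, 7.82 and 8.39 in controls. Control 3 stood apart from the other controls, which lay within the hydrogen water values, and the difference was 0.11 (SE 0.16) with control 3 and −0.05 without it.

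Among genes of glutathione metabolism, 8 of 10 were lower with hydrogen water, with a median difference of −0.14, and 0 of 10 had an unadjusted p under 0.05. Gclc, the catalytic subunit of glutamate-cysteine ligase and the rate-limiting step of glutathione synthesis, had 11.38, 11.26, 11.03 and 11.42 with hydrogen water, against 11.83, 11.61, 11.30 and 11.47 in controls. Control 3 lay within the hydrogen water values and the other controls lay above them. The difference was −0.28 (SE 0.13, 95% interval −0.57 to 0.01), a ratio of 0.822, and without control 1 it was −0.19. Gclm, the modifier subunit of the same enzyme, whose core match is shown above, had 11.59, 11.68, 11.64 and 11.92 with hydrogen water, against 12.07, 11.76, 11.96 and 11.73 in controls. Its groups overlapped through hydrogen water 4, and the difference was −0.17 (SE 0.12) with control 1 and −0.11 without it. Gss, which adds glycine to complete glutathione, averaged 9.52 ± 0.11 with hydrogen water and 9.73 ± 0.24 in controls (SD, n = 4 each). Its highest value, 10.05, was again on control 1, and the difference was −0.21 (SE 0.13) with that array and −0.10 without it. Gsr, which reduces oxidised glutathione with NADPH, differed by −0.03 (SE 0.10).

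The glutathione peroxidases, which spend glutathione on peroxides, did not share a direction. Gpx1, the abundant cytosolic form, had 12.87, 12.84, 12.62 and 12.39 with hydrogen water, against 12.96, 13.00, 12.77 and 12.82 in controls. Hydrogen water 1 and 2 lay among the controls while hydrogen water 3 and 4 lay below them, and the difference was −0.20 (SE 0.12, 95% interval −0.48 to 0.07), or −0.11 without hydrogen water 4. Gpx4, which reduces lipid hydroperoxides in membranes, had 11.64, 11.61, 11.31 and 10.73 with hydrogen water, against 11.62, 11.53, 10.92 and 11.53 in controls. A single low array in each group, hydrogen water 4 and control 3, set its spread. The difference of −0.07 (SE 0.21) became −0.23 without control 3 and 0.12 without hydrogen water 4, and a second probe set for Gpx4 gave −0.06. Gpx2, an epithelial form that lay below the median level of genes, differed by −0.27 (SE 0.15), or −0.15 without hydrogen water 1, and Gpx3, which is secreted into plasma, by 0.09 (SE 0.22) with control 1 and −0.08 without it. Glrx, a glutaredoxin that removes glutathione from proteins, differed by 0.23 (SE 0.12, 95% interval −0.04 to 0.49) with its lowest value on control 1, and by 0.13 without that array. Slc7a11, the cystine importer of stressed cells, was dim on every array, at 3.25, 3.09, 3.01 and 3.13 with hydrogen water, against 3.06, 3.19, 3.30 and 3.39 in controls. It lay below the median level of genes, its values overlapped, and the difference was −0.12 (SE 0.11), or −0.06 without control 4.

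The thioredoxin and peroxiredoxin genes had a median difference of −0.04, with 7 of 10 lower, and without control 1 the median was 0.06 with 3 of 10 lower. Prdx1, a cytosolic peroxiredoxin whose window holds the core, had 12.68, 12.76, 12.66 and 12.60 with hydrogen water, against 12.86, 12.72, 12.56 and 12.68 in controls. The controls spanned all hydrogen water values, and the difference was −0.03 (SE 0.10, 95% interval −0.25 to 0.19). A second probe set naming Prdx1 gave −0.05, and there the hydrogen water values spanned all controls. Srxn1, sulfiredoxin, which rescues overoxidised peroxiredoxins, had 9.74, 9.75, 9.64 and 9.72 with hydrogen water, against 9.53, 9.65, 9.52 and 9.53 in controls. Its groups touched at a single place, where hydrogen water 3 lay just under control 2, and all other hydrogen water values lay above all controls. The difference of 0.16 (SE 0.09, 95% interval −0.04 to 0.36), a ratio of 1.12, lay between 0.14 and 0.19 whichever array was left out. Its unadjusted p was 0.111 and its adjusted p 0.762 in limma. Txnrd1, the cytosolic thioredoxin reductase, had 9.37, 9.34, 9.52 and 9.69 with hydrogen water, against 9.52, 9.56, 9.40 and 9.31 in controls. These values interleaved, and the difference was 0.03 (SE 0.11), or −0.01 with each array centred on its median.

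Other genes of that system stood close to control. Txn1, cytosolic thioredoxin, differed by −0.04 (SE 0.09) and its mitochondrial partner Txn2 by −0.09 (SE 0.09), while the mitochondrial reductase Txnrd2 differed by −0.05 (SE 0.15). Msra, which repairs oxidised methionine, differed by −0.11 (SE 0.10). Prdx2 differed by −0.02 (SE 0.17), or 0.01 with quantile normalization, and a second probe set naming Prdx2 gave −0.12. The mitochondrial Prdx3 differed by 0.10 (SE 0.16). Prdx4, the peroxiredoxin of the endoplasmic reticulum, had the largest SE of the 39 genes. Its values were 9.91, 10.02, 9.66 and 9.55 on hydrogen water arrays, against 10.54, 10.46, 8.74 and 9.91 in controls. Hydrogen water livers lay between the extremes of the controls, and the difference was −0.13 (SE 0.32) with all arrays, 0.08 without control 1 and −0.52 without control 3.

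**Figure D2:**
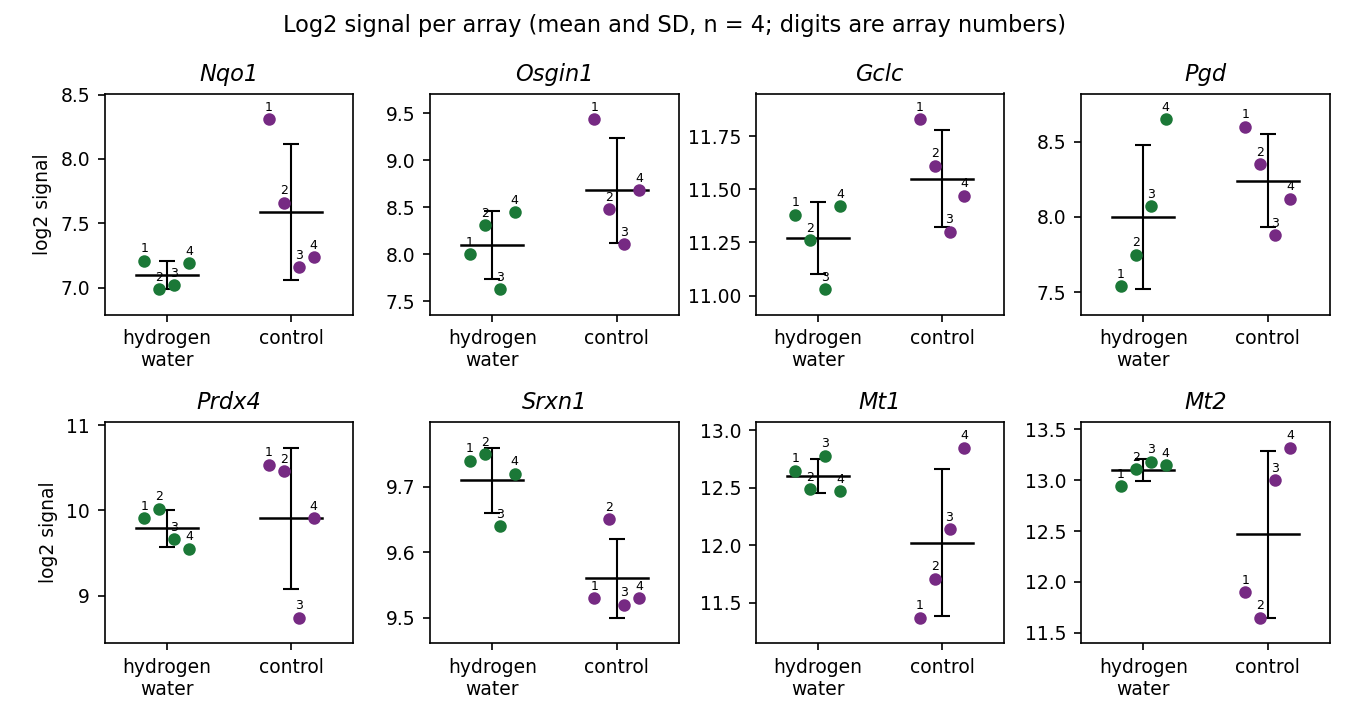
Each panel gives the log2 signal of a gene on every array, hydrogen water left and control right, with the mean and SD (n = 4) and the array number beside each point. In Nqo1, Osgin1 and Gclc control 1 is the highest point, and in Prdx4 control 3 is the lowest at 8.74. In Mt1 and Mt2 controls 1 and 2 lie below all hydrogen water values while control 4 lies above them. Between Mt1 and Mt2, control 3 lies below all hydrogen water values in Mt1 only.

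Genes that remove superoxide and hydrogen peroxide were the closest to control of all role groups, with differences between −0.05 and 0.06 and a median of −0.03. Sod1, the cytosolic copper-zinc superoxide dismutase, had 13.17, 13.10, 13.13 and 12.97 with hydrogen water, against 13.30, 13.17, 13.06 and 13.04 in controls. Sod2, its mitochondrial manganese counterpart, had 12.00, 11.95, 12.18 and 12.22 with hydrogen water, against 12.27, 12.20, 12.09 and 11.95 in controls. Both sets of values overlapped throughout, and the differences were −0.05 (95% interval −0.27 to 0.17) for Sod1 and −0.04 (95% interval −0.28 to 0.20) for Sod2. Cat, the peroxisomal catalase, had 13.68, 13.53, 13.69 and 13.79 with hydrogen water, against 13.78, 13.62, 13.83 and 13.57 in controls, again without separation. Its difference was −0.03 (95% interval −0.26 to 0.20). Sod3, the extracellular form, differed by 0.06 (SE 0.13) with control 1 and −0.05 without it. In Sod1, Sod2 and Cat the intervals extended no further than 0.28 below and 0.20 above control on the log2 scale.

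All 3 measured genes of the pentose phosphate pathway, which reduces NADP for glutathione and thioredoxin reductases, were lower with hydrogen water, by a median of −0.22. Pgd, 6-phosphogluconate dehydrogenase, averaged 8.0 ± 0.48 with hydrogen water and 8.24 ± 0.31 in controls (SD, n = 4 each), with its highest value, 8.65, on hydrogen water 4. The transketolase gene Tkt averaged 7.85 ± 0.16 with hydrogen water and 8.07 ± 0.33 in controls (SD, n = 4 each), and the transaldolase gene Taldo1 8.19 ± 0.18 with hydrogen water and 8.36 ± 0.18 in controls. Their differences were −0.24 (SE 0.22), −0.22 (SE 0.16) and −0.17 (SE 0.13), and without control 1 all of them lay between −0.12 and −0.11. The Pgd difference ranged from −0.45 without hydrogen water 4 to −0.08 without hydrogen water 1, and that of Tkt reached −0.33 without control 3. That of Tkt was −0.13 without control 2. With all arrays none had an unadjusted p under 0.05.

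The largest differences on the lower side were among the other NRF2 targets, of which 5 of 8 were lower, by a median of −0.15. Nqo1, a quinone reductase widely read as an index of NRF2 activity, had 7.21, 6.99, 7.02 and 7.19 with hydrogen water, against 8.31, 7.66, 7.16 and 7.24 in controls. Controls 1, 2 and 4 lay above every hydrogen water liver, and control 1 lay far above the rest. The difference was −0.49 (SE 0.21, 95% interval −0.95 to −0.03; limma adjusted p = 0.687), a ratio of 0.712, and without control 1 it was −0.25 (95% interval −0.56 to 0.06), against −0.63 without control 3. Osgin1, an oxidative stress-induced growth inhibitor, had 8.0, 8.31, 7.63 and 8.45 with hydrogen water, against 9.44, 8.48, 8.11 and 8.68 in controls. Control 3 lay among the hydrogen water values, the other controls lay above them, and control 1 was again the highest. The difference was −0.58 (SE 0.25, 95% interval −1.13 to −0.03; limma adjusted p = 0.687), a ratio of 0.669, and without control 1 it was −0.33 (95% interval −0.77 to 0.11), against −0.77 without control 3.

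Hmox1, which breaks down haem and is also controlled by BACH1, had 7.08, 7.20, 7.15 and 7.54 with hydrogen water, against 7.25, 7.66, 7.06 and 7.14 in controls. Its highest value was on control 2 and its lowest on control 3, and the difference was −0.03 (SE 0.15, 95% interval −0.36 to 0.29). The carbonyl reductases Cbr1 and Cbr3 differed by −0.26 (SE 0.18) and −0.41 (SE 0.19). Cbr3 lay below the median level of genes, and without control 1 its difference was −0.45, whereas that of Cbr1 was −0.15. The Cbr1 difference was −0.44 without control 3 and −0.17 without control 2. The remaining genes of drug and sugar metabolism stood near control: Ephx1, microsomal epoxide hydrolase, differed by 0.03 (SE 0.12) and Ugdh, which makes UDP-glucuronate, by 0.02 (SE 0.13), or by −0.01 and −0.02 with each array centred on its median. Aox1, an aldehyde oxidase, differed by 0.10 (SE 0.16), between 0.01 without hydrogen water 1 and 0.26 without hydrogen water 2.

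The metallothioneins, small cysteine-rich proteins that bind zinc and copper and answer to metals, glucocorticoids and oxidants, differed most on the higher side. Mt1 had 12.65, 12.49, 12.78 and 12.47 with hydrogen water, against 11.37, 11.71, 12.14 and 12.85 in controls. Mt2, in whose window the core coincides with an AP-1 site, had 12.94, 13.11, 13.18 and 13.15 with hydrogen water, against 11.90, 11.65, 13.00 and 13.32 in controls. In both genes the hydrogen water livers lay close together, controls 1 and 2 lay below all of them and control 4 above all of them. The differences were 0.58 (SE 0.25, 95% interval 0.04 to 1.12; limma adjusted p = 0.687), a ratio of 1.49, for Mt1 and 0.63 (SE 0.30, 95% interval −0.04 to 1.29; limma adjusted p = 0.709), a ratio of 1.55, for Mt2. With each array left out in turn the difference ranged from 0.36 to 0.86 for Mt1, lowest without control 1 and highest without control 4. For Mt2 it ranged from 0.36 to 0.91, lowest without control 2 and highest without control 4, and it was 0.44 without control 1. The SD among controls was 0.64 for Mt1 and 0.82 for Mt2, against 0.15 and 0.11 among hydrogen water livers, and no test of that contrast in spread was made.

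**Figure D3:**
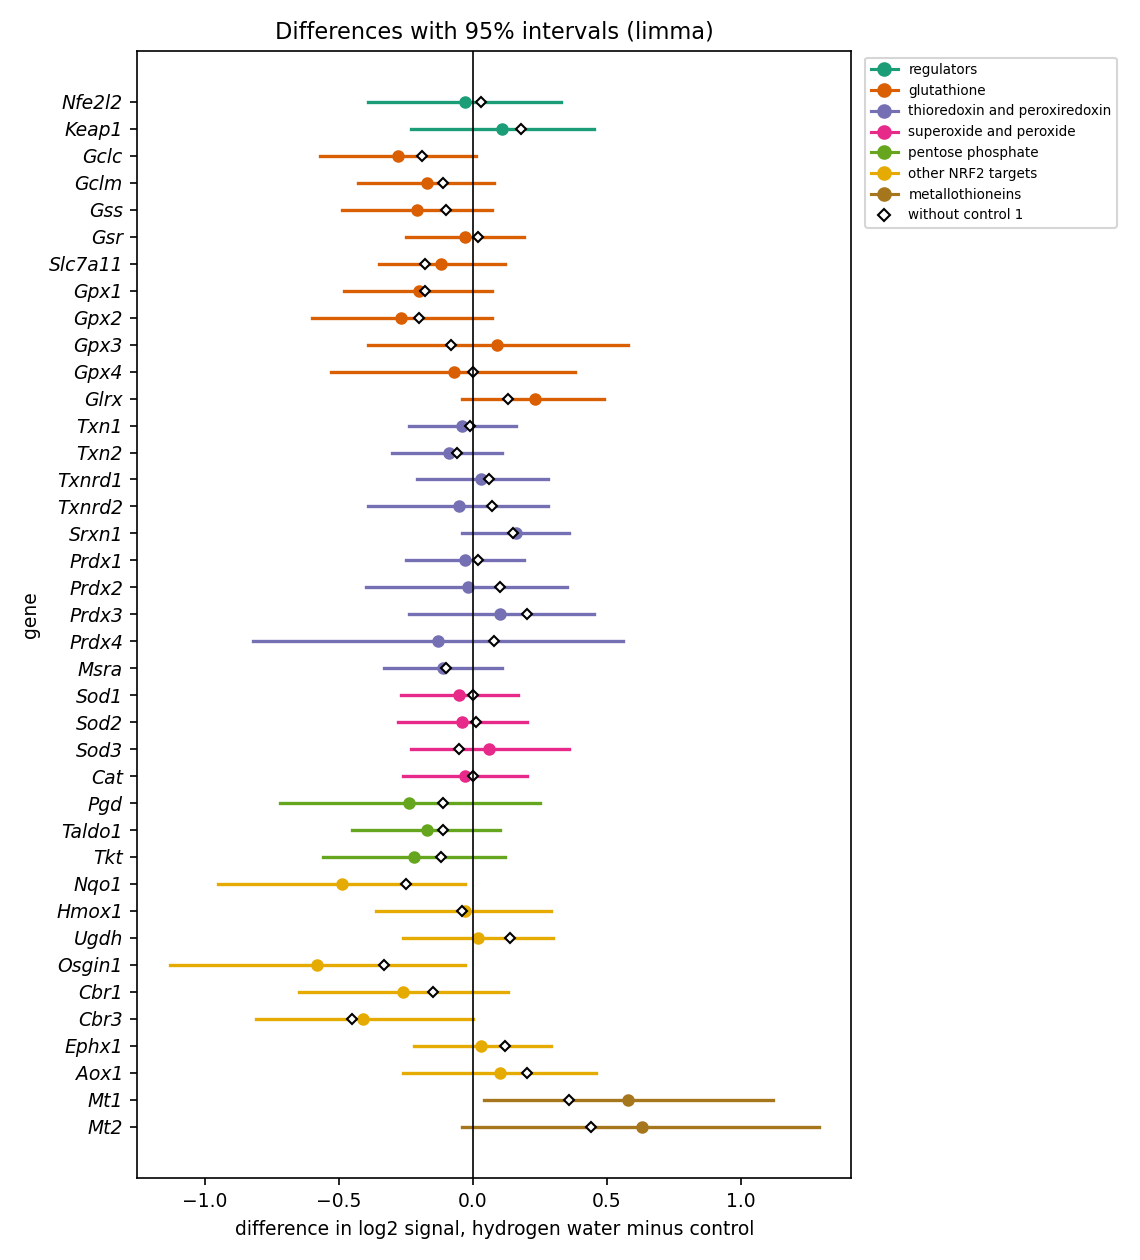
Filled points give the difference in log2 signal, hydrogen water minus control, for each of the 39 genes, with 95% intervals from limma, and open diamonds the difference without control 1. Only the intervals of Nqo1, Osgin1 and Mt1 exclude zero, none of these genes passed the adjusted threshold, and all 3 diamonds lie nearer to zero than their points.

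The role groups can be set side by side by the mean of their genes on each array, each gene centred on its own average. The other NRF2 targets stood at −0.04, −0.10, −0.26 and −0.00 on hydrogen water 1 to 4, against 0.42, 0.20, −0.24 and 0.02 on controls 1 to 4. Pentose phosphate genes ran likewise, at −0.11, −0.30, −0.07 and 0.07, against 0.38, 0.27, −0.21 and −0.03. Controls 1 and 2 were the highest arrays and control 3 among the lowest in both. The metallothioneins ran the opposite way in controls, at 0.25, 0.25, 0.44 and 0.26 with hydrogen water, against −0.91, −0.87, 0.03 and 0.54. The superoxide and peroxide genes stayed between −0.07 and 0.05 on every array.

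**Figure D4:**
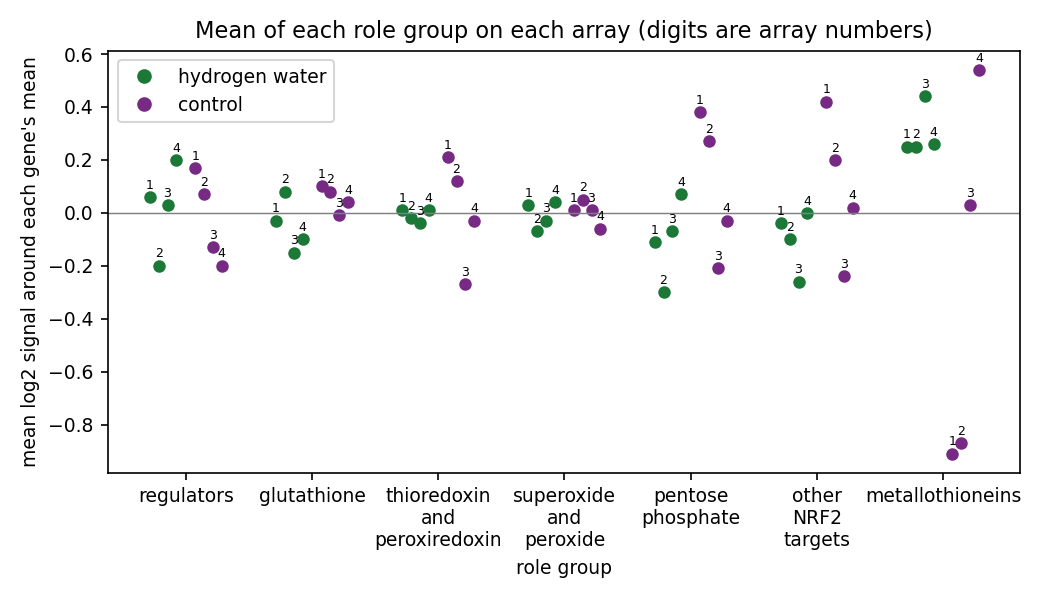
Points give the mean log2 signal of each role group on each array, each gene around its own mean, with hydrogen water left and control right within a group and array numbers beside the points. Controls 1 and 2 lead the pentose phosphate and other NRF2 target groups (0.38 and 0.42 on control 1) and trail in the metallothioneins (−0.91 and −0.87).

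Beyond the 39 genes, 101 of 110 other genes of the pathway were measured, among them the partners and repressors of NRF2, glutathione S-transferases, NADPH sources and enzymes that produce superoxide. Of these, 0 passed the adjusted threshold, 12 (11.9%) had an unadjusted p under 0.05, 3 higher and 9 lower, against 3.60% and 3.57% of all genes, and the median difference was −0.03. In 4 (3.96%) the groups did not overlap, 1 higher and 3 lower, against 1.76% and 2.01% of all genes. Ces1g, a hepatic carboxylesterase, had 11.05, 10.86, 10.75 and 11.05 with hydrogen water, against 11.65, 11.24, 11.33 and 11.58 in controls, a difference of −0.52 (SE 0.12; limma adjusted p = 0.617). Unlike Nqo1 its groups did not touch, and without control 1 its difference was −0.45. Txndc12, a thioredoxin-domain protein of the endoplasmic reticulum, and the glutathione S-transferase Gstm6 were also apart, by −0.39 (SE 0.11) and −0.32 (SE 0.12). Nfe2l1, the NRF2 relative that drives proteasome genes, had 10.04, 10.18, 10.02 and 10.19 with hydrogen water, against 9.79, 9.80, 9.60 and 9.95 in controls. Its groups lay apart on the higher side, with a difference of 0.32 (SE 0.11; limma adjusted p = 0.638) that was 0.33 without control 1.

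By the smallest unadjusted p, the other genes of these 12 on the lower side included Akr1c13, an aldo-keto reductase, at −0.46 (SE 0.15), Glrx3, a monothiol glutaredoxin, at −0.43 (SE 0.16), and Chac2, which breaks glutathione down, at −0.42 (SE 0.14). On the higher side stood the zinc and iron transporter Slc39a14 at 0.49 (SE 0.18) and Cybb, the phagocyte NADPH oxidase subunit, at 0.65 (SE 0.22). Cybb had 6.65, 6.78, 7.21 and 7.80 with hydrogen water, against 6.49, 6.43, 6.74 and 6.20 in controls, with hydrogen water 4 the highest. Without hydrogen water 4 the difference was 0.42 for Cybb and −0.28 for Glrx3. Markers of Kupffer cells, the liver macrophages, were higher in 10 of 10, with per-array means between −0.17 and 0.60 with hydrogen water, against −0.42 to 0.14 in controls, the top value also on hydrogen water 4. Their part in the Cybb value was not tested. Among the subgroups, 23 of 29 other glutathione genes were lower (median −0.09), as were 10 of 15 other thioredoxin genes (median −0.05), while the 14 genes that control NRF2 split 7 to 7 and the 10 other genes of NADPH supply 5 to 5. The superoxide sources and their helpers were higher in 6 of 8 (median 0.12), metal handling genes were higher in 4 of 5 (median 0.07), and the 20 other NRF2-linked genes had 11 lower (median −0.03). Over all 101 genes, 58.4% were lower with control 1 included and 48.5% without it, against 51.3% and 51.9% of all genes tested.

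Markers of other cells were read beside these results, since whole liver holds bile duct, endothelial, stellate and blood cells beside hepatocytes. The median difference was −0.23 over 4 cholangiocyte markers, with per-array means between −0.30 and 0.06 with hydrogen water, against −0.25 to 0.44 in controls. Their mean was −0.25 on control 1, where Nqo1 was highest, and 0.44 on control 2. On control 2 Krt19 was 6.78, against 5.11 to 5.84 on the other controls. Of the 4, Krt19, Krt7 and Epcam lay below the median level of genes and were lower, while Sox9 was higher (0.19). Sinusoidal endothelial markers were higher in 7 of 7 (median 0.32), and stellate cell markers lower in 4 of 6 (median −0.11). The medians were 0.03 over hepatocyte, −0.06 over pericentral and 0.08 over periportal markers, 0.02 over erythroid, 0.04 over neutrophil and −0.05 over pancreatic acinar markers. In periportal markers control 3 was the lowest of all arrays (−0.44), as in the thioredoxin and peroxiredoxin genes (−0.27). Beyond these values the part of cell makeup in the differences was not tested.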

How the data were processed

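The deposited table holds log2 signals, 1 value for each probe set on each array. Per the submitters' processing notes the tool was Affymetrix Expression Console; its version, its background, normalization and summary steps and the genome build are not stated in these sources. The log2 scale was inferred from the deposited values (1.4 to 14.78). Arrays have no read depth, and their number limits the precision.

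Of 35556 probe sets, 21789 carried 1 symbol, 1621 several and 12146 none. Symbols were updated through Entrez identifiers in RefSeq tables of GRCm38.p6 (19856 of 19938 genes matched). Where a gene had several probe sets, the one with the highest mean was used. All genes were fitted in R 4.3.3 with limma 3.58.1 (functions lmFit and eBayes, hydrogen water minus control, two-sided, no covariate, 6 residual and 5.88 prior degrees of freedom), with Benjamini-Hochberg adjustment at 0.05. SE and 95% intervals are from that fit. No filter on level was used. The fit was tested on simulated data in 5 runs, each with 200 of 19938 genes changed. Changes of 0.5, 1, 1.5 and 2 were mixed in each run, and noise was drawn independently for each gene and array. Recovery in the real data, where genes can vary together on an array, may be lower. At an adjusted p under 0.05 (limma) it recovered 36% of changes of 0.5 on the log2 scale and 92.4% of changes of 1. Of the calls, 4.65% were false.

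The genes and lists were chosen with earlier results of these data known, so counts over lists are descriptions. Values on each array are given for genes with an unadjusted p under 0.05 and for a fixed set of regulators and major enzymes; those of Prdx4, Ces1g, Nfe2l1 and Cybb were added after their values were seen. Of the other pathway genes, at most 6 in each direction with the smallest unadjusted p are named. Alternatives were a filter on dim probe sets, averaging the probe sets of a gene, quantile normalization, centring on array medians, a variance fit with trend and robust settings, weights for arrays, a block for the replicate number, and each array left out. Figures used matplotlib 3.10.9 (Python 3.11.15).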

Additional observations from a re-analysis of the deposited data

Results flagged for a closer look

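In 4 of 112 sets of 4 arrays (3.57%), an array lay far from the other values of its group, where chance gives about 1 in 20 sets. Keap1 on control 3 was 7.82, against 8.39 to 8.51 on the other controls. Gpx4 on control 3 was 10.92, against 11.53 to 11.62. Srxn1 on control 2 was 9.65, against 9.52 to 9.53, and its groups overlapped only where control 2 lay above hydrogen water 3 (9.64). The mean of the metallothioneins on hydrogen water 3 was 0.44, against 0.25 to 0.26 on the other hydrogen water arrays.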

How the results depend on the processing

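None of the 39 genes had an adjusted p under 0.05 in any of the 15 alternatives run, and the lowest adjusted p of any was 0.338, with array weights (limma). Over all genes, the adjusted calls numbered 0 to 1 when each array was left out in turn: Sucnr1 without control 2 and Aqp8 without control 3, both named after their values were seen. The unadjusted calls over all genes numbered 786 with dim probe sets filtered out, against 1429 before, since fewer genes were tested. Among the 39 genes the unadjusted calls numbered 3 of 39 (7.69%, against 7.17% of all genes). They numbered 5 with median centring (12.8%, against 8.01%), 9 with array weights (23.1%, against 10.4%), and between 0 and 12 with each array left out, 12 being without control 3 (30.8%, against 8.57%). With the replicate number as a block there were 6 (15.4%, against 6.59%), though the labels do not state that the numbers pair samples. Over all genes, same-numbered arrays deviated together with correlations between −0.159 and 0.0587. Such values cannot decide whether samples were paired in a way that touches few genes. The cause of these shifts in the number of unadjusted calls was not tested. In 18 genes the difference turned sign in some alternative, and in the other 21 it did not. With array weights it was 0.00 for Cat, 0.01 for Nfe2l2, −0.03 for Ephx1 and −0.02 for Ugdh. With median centring it was −0.01 for Ephx1 and Txnrd1 and −0.02 for Ugdh, and with quantile normalization 0.01 for Prdx2. With each array left out, it ranged from −0.05 to 0.18 for Keap1, −0.17 to 0.06 for Nfe2l2, −0.09 to 0.02 for Gsr, −0.08 to 0.28 for Gpx3 and −0.23 to 0.12 for Gpx4. It ranged from −0.04 to 0.08 for Txnrd1, −0.19 to 0.07 for Txnrd2, −0.08 to 0.02 for Prdx1, −0.21 to 0.10 for Prdx2, −0.04 to 0.20 for Prdx3 and −0.52 to 0.08 for Prdx4. It ranged from −0.08 to 0.00 for Sod1, −0.10 to 0.01 for Sod2, −0.05 to 0.14 for Sod3 and −0.07 to 0.02 for Cat, and from −0.13 to 0.09 for Hmox1, −0.06 to 0.14 for Ugdh and −0.04 to 0.12 for Ephx1. The difference stayed below zero in all alternatives for Nqo1 and Osgin1 and above zero for Mt1, Mt2 and Srxn1. With 4 arrays a group, the lack of an adjusted call does not bound a difference. A 95% interval does so only for its gene alone, without adjustment for the number of genes. Where the arrays of a group are not separate animals, the interval reflects sample-to-sample spread alone.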
